A study of Homo sapiens with 2 samples.

Results

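The genes described here are 9 transcriptional targets of p53, namely CDKN1A, MDM2, BBC3, BAX, GADD45A, SESN1, TP53I3, FAS and RRM2B, chosen by name from the 30238 gene names on the arrays. All 18 probes that carry these names were used, of 41000 probes in all. The study asked which expression changes accompany resistance of ovarian tumor cells to carboplatin alone and to carboplatin with docetaxel. A2780 cells come from a human ovarian carcinoma. A2780CBN was selected for survival in carboplatin up to 22.2 µM. A2780CBNDXL was selected in carboplatin and docetaxel together, and the labels give 8.02 µM for the combination, a figure that the study uses for an inhibitory dose and not for the lower dose reached in selection. Both were compared with A2780CC, cells carried through culture beside them without drug. The labels name both controls A2780CC and do not say whether these were 1 culture. Doses were raised in small steps so as not to pick out single clones, and the sources used here do not say whether drug was present when RNA was taken.

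RNA of 3 isolations was pooled into 1 sample for each line, and that sample was hybridized together with control RNA to 4 two-colour arrays. Forward and reverse labelling were each used on 2 slides. All arrays of a line therefore repeat 1 sample. Their SD holds only the error of labelling and hybridization, and no test between cultures was possible. The value of a gene is the log2 ratio of the resistant line over its control. The sign rests on the forward arrays, for which control Cy3 and line Cy5 are recorded, because the dye entries of the reverse arrays contradict their own name. A gene met the 2-fold rule when its mean reached a log2 ratio of 1 in either direction, all 4 arrays gave the same sign, and its probe was well above background in the RNA of the line or of the control on all 4 arrays. Between 59.8% and 67.5% of spots per channel were well above background, and 0 spots were saturated. On the first forward array of A2780CBNDXL some probes were bright or dim in both channels together, which is stated below for BBC3, TP53I3 and RRM2B.

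p53 is a transcription factor that is stabilised when DNA is damaged and then binds paired 10-base half-sites near its target genes. Its targets halt the cell cycle, aid repair, restrain oxidative stress, or start cell death through mitochondria or through death receptors. MDM2, itself a target, marks p53 for degradation and closes a feedback loop. Carboplatin forms platinum adducts on DNA, whereas docetaxel stabilises microtubules.

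The probes that carry the contrast between the members are shown first, with a pair of BBC3 probes because that gene's reading depended on the probe. Runs of 5 or more G and C are in capitals. The GADD45A probe, at chr1:67925959-67926018 on the plus strand of NCBI36, is shown because GADD45A alone among the members differed 2-fold between the lines. The TP53I3 probe, within chr2:24154119-24155860 on the minus strand, spans 1742 bases of the genome with 60 bases of sequence, so its match to the genome is split. The second CDKN1A probe is at chr6:36760156-36760215 on the plus strand. The brightest BBC3 probe, at chr19:52423274-52423333 on the minus strand, has a GC content of 85.0%, above that of 99.976% of all probes on the array, whose median is 41.7%. The dimmest BBC3 probe, at chr19:52416927-52416986 on the minus strand, has more GC than 96.1% of all probes.
GADD45A: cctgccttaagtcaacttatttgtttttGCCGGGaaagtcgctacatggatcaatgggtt
TP53I3: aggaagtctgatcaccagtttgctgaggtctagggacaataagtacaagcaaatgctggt
CDKN1A, second probe: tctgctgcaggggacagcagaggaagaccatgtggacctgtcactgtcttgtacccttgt
BBC3, brightest probe: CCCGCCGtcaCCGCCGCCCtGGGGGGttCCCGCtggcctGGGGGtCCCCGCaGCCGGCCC
BBC3, dimmest probe: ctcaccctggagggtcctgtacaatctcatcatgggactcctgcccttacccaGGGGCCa

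In A2780CBN 4 of the 9 genes met the 2-fold rule and all 4 were higher than in the control. They were FAS (11.1-fold), GADD45A (3.04-fold), CDKN1A (2.53-fold) and TP53I3 (2.02-fold). In A2780CBNDXL 3 genes met it, again all higher, namely FAS (10.5-fold), TP53I3 (2.73-fold) and CDKN1A (2.04-fold). Over all genes tested, 8% of 17951 were higher and 4.55% were lower by the same rule in A2780CBN, and 7.7% of 17115 were higher and 9.2% were lower in A2780CBNDXL. No member was lower by the rule in either line. The median log2 ratio of the 9 members was 0.59 in A2780CBN and 0.84 in A2780CBNDXL, and that of all genes was 0.01 and 0.07. All 9 members passed the filter on background in both lines. Since the members were chosen with earlier results of these arrays known, these shares are a description.

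**Figure D1:**
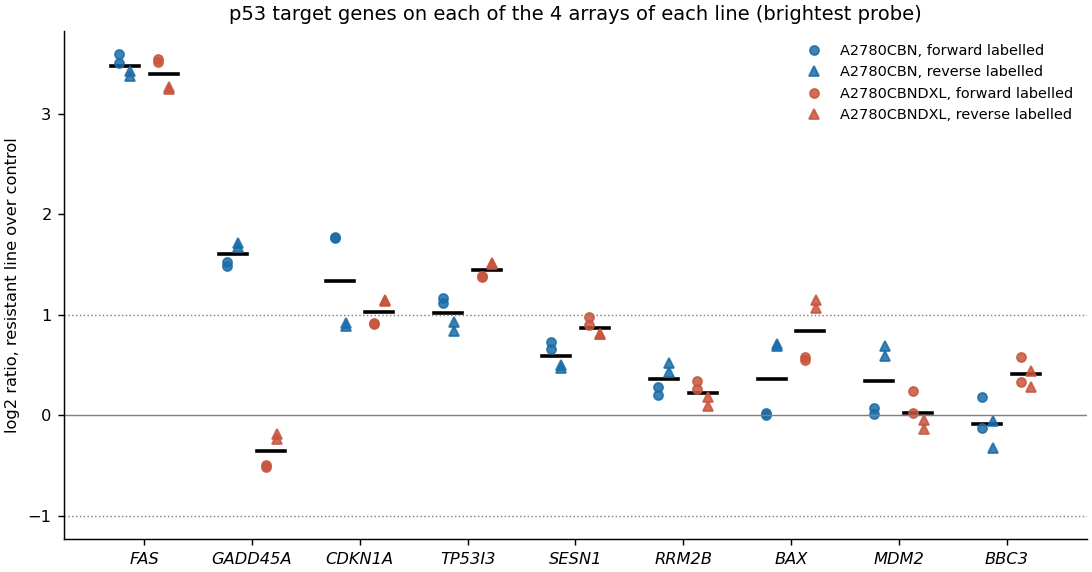
Log2 ratio of resistant line over control (vertical axis) for the brightest probe of each p53 target gene, with 1 point per array, circles for forward and triangles for reverse labelling, and bars at the mean; dotted lines mark 2-fold. FAS lies above 3 on all 8 arrays, and GADD45A lies above 1 on the 4 arrays of A2780CBN and below 0 on the 4 arrays of A2780CBNDXL.

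FAS, the death receptor that starts the extrinsic pathway of apoptosis, had the largest ratio of the members in both lines. Its log2 ratios on the arrays of A2780CBN were 3.59 and 3.51 with forward and 3.37 and 3.42 with reverse labelling. On those of A2780CBNDXL they were 3.55 and 3.52 with forward and 3.27 and 3.25 with reverse labelling. All 8 arrays fell within a narrow band, and the resistant and control signals did not overlap. The processed signal in A2780CBN was 845 to 1201 against 74.3 to 99.4 in its control, and in A2780CBNDXL it was 1025 to 1521 against 108 to 148. The mean log2 ratios were 3.48 ± 0.10 and 3.40 ± 0.16 (SD, n = 4 arrays each), which placed FAS at rank 111 of the 17951 genes tested in A2780CBN and at rank 172 of 17115 in A2780CBNDXL. The size depended on how the background was treated. With normexp background correction and an offset of 50 added to both channels, the log2 ratios were 1.69 and 2.02, and with an offset of 1 they were 2.47 and 2.74. The control signal of FAS is of the order of the larger offset, but the ratio was also smaller with the offset of 1. The cause was not tested. FAS met the 2-fold rule under each of these settings.

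A set of 14 starts for 7 of the members was taken from the RefSeq promoter table of GRCh38.p14. GADD45A and RRM2B were not in this set, which does not show that the table lacks them. The 250 bases before each start were searched on both strands for the p53 half-site consensus, for the GC box GGGCGG and for the TATA box TATAAA. Half-site matches were found before 2 of the 14 starts, 1 of FAS and 1 of SESN1, and before 5.57% of all 35116 starts in the table. GC boxes lay before 11 of the 14 and before 42.6% of all starts. TATA boxes lay before 0 of the 14 and before 3763 of the 35116. The starts of the members were a selected set, so their shares beside those of all starts are a description and were not tested. Matches of letters do not show binding. The FAS sequence, at chr10:88991181-88991430 on the plus strand, is shown because FAS had the largest ratio, with the half-site in capitals ending 113 bases before the start of a downstream transcript. The SESN1 stretch, at chr6:109009018-109009047 on the minus strand, holds its half-site in capitals 40 bases before the start.
FAS: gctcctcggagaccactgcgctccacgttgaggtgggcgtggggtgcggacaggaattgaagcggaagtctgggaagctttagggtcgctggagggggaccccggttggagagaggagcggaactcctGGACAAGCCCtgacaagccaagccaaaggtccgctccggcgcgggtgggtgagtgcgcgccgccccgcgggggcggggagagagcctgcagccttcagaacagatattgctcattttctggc
SESN1: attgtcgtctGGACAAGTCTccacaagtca

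BAX and BBC3 act at the mitochondrion, BAX as the protein that permeabilises its outer membrane and BBC3 (PUMA) as a BH3-only protein that releases BAX from its inhibitors. Neither met the 2-fold rule in either line. The brightest BAX probe gave log2 ratios of 0.01 and 0.02 on forward and 0.71 and 0.69 on reverse arrays of A2780CBN. In A2780CBNDXL it gave 0.56 and 0.58 on forward and 1.15 and 1.07 on reverse arrays. In both lines the reverse arrays read higher by more than the spread between slides, and the means were 0.36 ± 0.40 and 0.84 ± 0.32 (SD, n = 4 arrays). The other probes of BAX, with 83.3% and 73.3% GC, gave 0.05 (3 arrays, since 1 spot was left out as an outlier) and 0.45 in A2780CBN and 0.71 and 0.99 in A2780CBNDXL. All 3 BAX probes thus had positive means in both lines, with larger values in A2780CBNDXL.

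The 3 probes of BBC3 disagreed. The brightest, which represents the gene here, gave a mean log2 ratio of -0.08 ± 0.21 in A2780CBN and 0.41 ± 0.13 in A2780CBNDXL (SD, n = 4 arrays). Its signs were mixed in A2780CBN and positive on all 4 arrays of A2780CBNDXL. The second brightest gave 0.97 ± 0.33 and 0.79 ± 0.09, positive on all 8 arrays, and the dimmest 0.64 ± 0.39 and 1.00 ± 0.71. The brightest probe, whose GC-rich sequence is given above, had signals of 104197 to 134846 in A2780CBN, and on the first forward array of A2780CBNDXL it reached 362983 in the line and 288386 in the control against 120052 to 179115 on the other 3 arrays. Averaged over its probes BBC3 had log2 ratios of 0.51 and 0.73, still short of 2-fold.

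**Figure D2:**
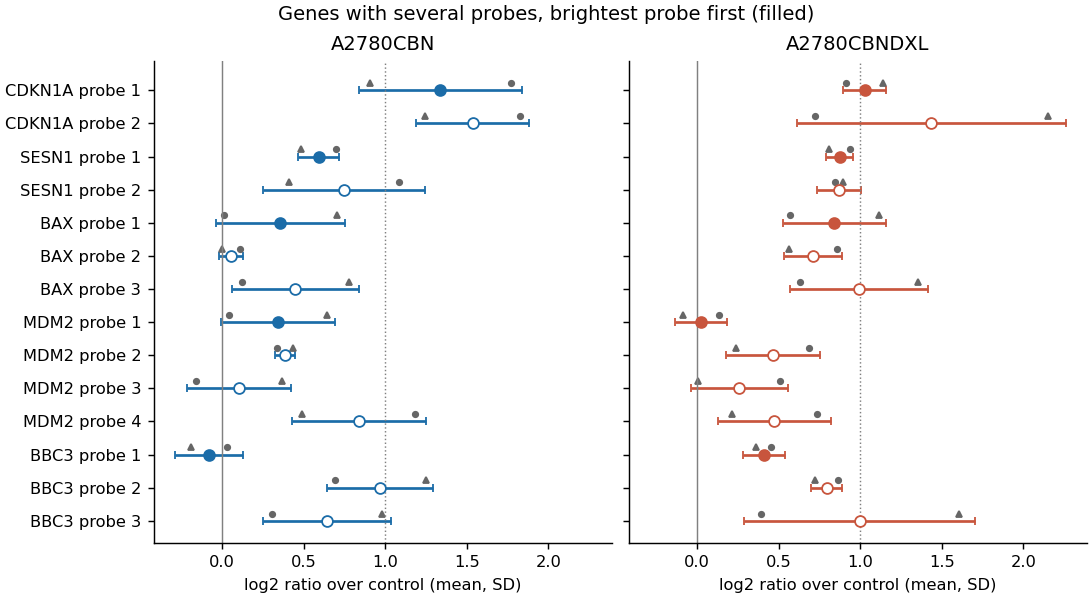
Mean log2 ratio over control with the SD of the arrays (horizontal axis) for every probe of the genes that have several, in A2780CBN and A2780CBNDXL; the filled symbol is the brightest probe, and the small circle and triangle above it are the means of the forward and reverse arrays. The BBC3 probes range from -0.08 to 0.97 in A2780CBN, and several probes show a gap between labelling directions as wide as their ratio.

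CDKN1A and GADD45A halt the cell cycle. CDKN1A encodes p21, an inhibitor of cyclin-dependent kinases. On the 4 arrays of A2780CBN its brightest probe read 13268, 9623, 12645 and 10082 in the line and 3879, 5088, 3728 and 5442 in the control, in the order forward, reverse, forward, reverse. The signals did not overlap. The log2 ratios were 1.77 and 1.76 with forward but 0.92 and 0.89 with reverse labelling, a mean of 1.34 ± 0.50 (SD, n = 4 arrays). In A2780CBNDXL they were 0.91 and 0.92 with forward and 1.15 and 1.14 with reverse labelling, a mean of 1.03 ± 0.13. The gap between labelling directions thus ran opposite ways in the 2 lines, and slides repeated each other closely. The second CDKN1A probe gave 1.53 ± 0.35 and 1.44 ± 0.82 and met the rule in both lines. In A2780CBNDXL this probe read 0.71 and 0.74 with forward and 2.17 and 2.13 with reverse labelling, so its forward arrays fell short of 2-fold. The call at the brightest probe in A2780CBNDXL lay at the limit. That probe fell to 0.96 with normexp and an offset of 50 and to 0.91 on the forward arrays alone.

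GADD45A, which binds PCNA and p21 and takes part in G2/M arrest and repair, was higher in A2780CBN and lower than its control, by less than 2-fold, in A2780CBNDXL. In A2780CBN its log2 ratios were 1.49 and 1.52 with forward and 1.72 and 1.68 with reverse labelling, with signals of 5160 to 7291 in the line and 1795 to 2305 in the control. In A2780CBNDXL they were -0.49 and -0.52 with forward and -0.18 and -0.23 with reverse labelling, with signals of 2177 to 3037 in the line and 2561 to 3599 in the control. The signs were opposite on all arrays. The mean log2 ratios were 1.60 ± 0.11 and -0.36 ± 0.17 (SD, n = 4 arrays), a difference of -1.96 between the lines. GADD45A was the only member whose ratios differed by 2-fold or more between the lines. The share of all genes whose ratios did so was not counted. With the controls exchanged between the lines the difference was -0.91 for GADD45A, short of 2-fold, and -1.09 for CDKN1A. Its place among all genes tested moved from rank 753 of 17951 to rank 12704 of 17115.

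TP53I3, an NADPH quinone oxidoreductase-like enzyme induced by p53, and SESN1, a sestrin that acts on peroxide handling and on mTORC1, were both higher in ratio in A2780CBNDXL than in A2780CBN. TP53I3 had log2 ratios of 1.12 and 1.17 with forward and 0.93 and 0.84 with reverse labelling in A2780CBN. In A2780CBNDXL they were 1.39 and 1.38 with forward and 1.51 and 1.52 with reverse labelling. The arrays of the lines did not overlap in this ratio. The means were 1.02 ± 0.16 and 1.45 ± 0.08 (SD, n = 4 arrays), with line signals of 17255 to 18578 against 7878 to 9644 in the control of A2780CBN. On the first forward array of A2780CBNDXL the TP53I3 signals were 15325 in the line and 5851 in the control. The other arrays of A2780CBNDXL had 23283 to 26657 and 8118 to 9363. The A2780CBN value lay at the limit of the rule, and leaving out the reverse array of slide 1 gave 0.99. SESN1 had means of 0.59 ± 0.13 and 0.87 ± 0.08 at its brightest probe and 0.75 ± 0.50 and 0.87 ± 0.13 at the other, with a positive ratio on each of the 8 arrays at both probes, and did not meet the rule.

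RRM2B encodes the small subunit of ribonucleotide reductase that supplies deoxynucleotides for repair outside S phase. Its log2 ratios were 0.36 ± 0.14 in A2780CBN and 0.22 ± 0.11 in A2780CBNDXL (SD, n = 4 arrays), positive on every array and under the limit. On the first forward array of A2780CBNDXL its signals were 359 in the line and 298 in the control, against 995 to 1066 and 783 to 997 on the other 3 arrays. The ratio there, 0.27, lay among those of the other arrays. The other subunits RRM1 and RRM2 did not meet the rule in either line, with -0.06 and 0.48 in A2780CBN and -0.67 and -0.64 in A2780CBNDXL.

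MDM2, the ubiquitin ligase of p53, did not meet the rule at any of its 4 probes in either line. The brightest gave a mean log2 ratio of 0.34 ± 0.35 in A2780CBN and 0.02 ± 0.16 in A2780CBNDXL (SD, n = 4 arrays). The other 3 probes had means of 0.10, 0.84 and 0.39 in A2780CBN and of 0.26, 0.47 and 0.46 in A2780CBNDXL. The highest of these came from a probe with signals of 36.2 to 51.3 in A2780CBN, for which the control was well above background on 3 of 4 arrays. All 4 probes had positive means in both lines, and none reached 2-fold.

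**Figure D3:**
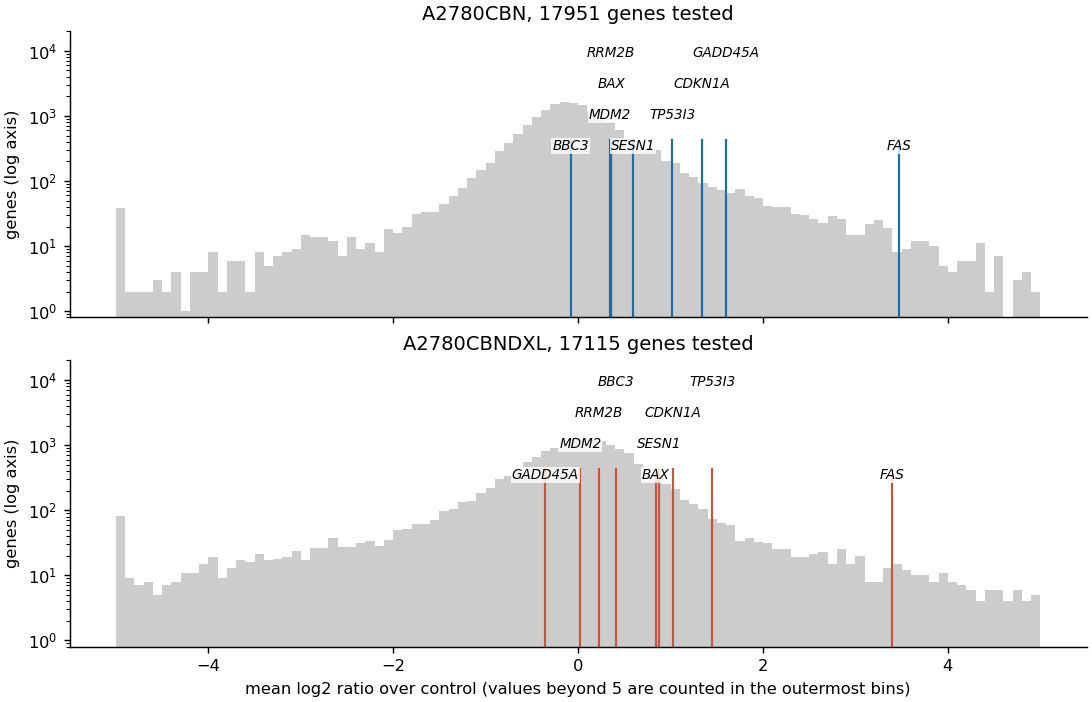
Number of genes (log axis) by mean log2 ratio over control for all genes tested in each line, in grey, with the 9 p53 target genes marked by lines. FAS stands in the right-hand tail in both panels, and GADD45A is to the right of the centre in A2780CBN and to the left of it in A2780CBNDXL.

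Whether a ratio moved through the line or through the control was read from the signals of each channel, scaled between arrays, at arrays of the same slide and labelling. Between the 2 resistant lines 15.3% of 18390 genes differed by the 2-fold rule, and between the 2 controls 4.34% of 18177. Of the 9 members, GADD45A met the rule between the lines and 0 members met it between the controls. The GADD45A signal was 2.70-fold lower in A2780CBNDXL than in A2780CBN (log2 difference -1.44 ± 0.30, SD over 4 matched pairs of arrays, negative in each). Its control signal was higher on the arrays of A2780CBNDXL by 0.52 ± 0.36, positive in each pair. CDKN1A was 1.63-fold lower in A2780CBNDXL (-0.70 ± 0.08, negative in each pair), while its control differed by -0.39 ± 0.63, with mixed signs. SESN1 was higher in A2780CBNDXL by 0.59 ± 0.33 and BAX by 0.40 ± 0.28 at their brightest probes, both positive in each pair. The other BAX probes differed. The one with 73.3% GC gave 0.42 ± 0.21, positive in each pair. The one with 83.3% GC gave 0.04 ± 0.31 between the lines, with mixed signs, and -0.58 ± 0.20 between the controls, negative in each pair measured. FAS differed by 0.39 ± 0.26 between the lines and by 0.47 ± 0.18 between the controls, so that its ratio was nearly equal. TP53I3 differed by 0.16 ± 0.26 between the lines and by -0.28 ± 0.38 between the controls, with mixed signs in both. The higher TP53I3 ratio of A2780CBNDXL thus was not a clear difference of the line signals.

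The order of the 4 RNAs was read within each probe from the geometric mean of the scaled signal. For FAS it was A2780CBNDXL (1277), A2780CBN (974), control of A2780CBNDXL (121) and control of A2780CBN (87.6), and the ranges of the 2 lines over their arrays overlapped. For GADD45A it was A2780CBN (6480), control of A2780CBNDXL (3066), A2780CBNDXL (2396) and control of A2780CBN (2135), where only A2780CBN stood outside the range of the others. For CDKN1A it was A2780CBN (11839), A2780CBNDXL (7284), control of A2780CBN (4688) and control of A2780CBNDXL (3574), with the 2 lines apart from each other and from both controls and the controls overlapping. Both lines stood above both controls for TP53I3, with 20815 and 18673 against 9232 and 7622. For MDM2, RRM2B and BBC3 the ranges of all 4 RNAs overlapped with at least 1 neighbour in the order, and no member other than FAS, CDKN1A and TP53I3 had both lines clear of both controls.

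**Figure D4:**
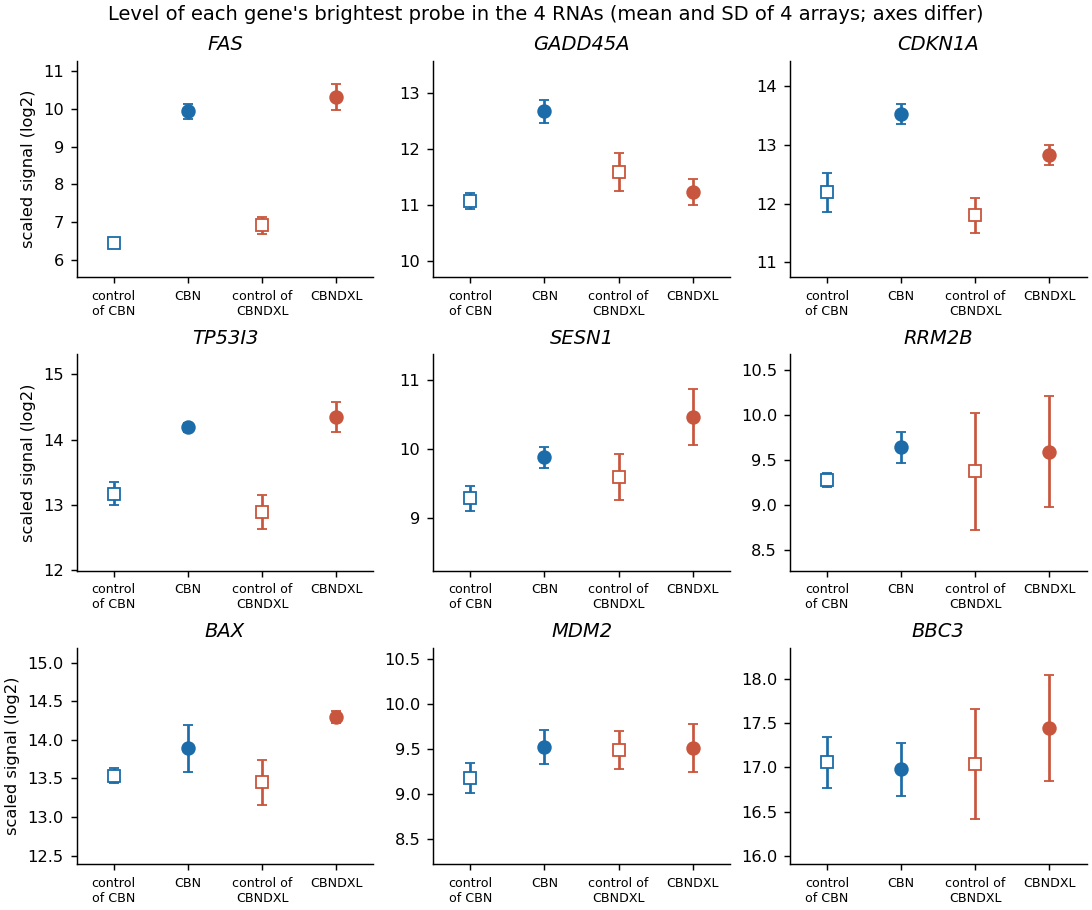
Scaled log2 signal (vertical axis, different in each panel) of the brightest probe of each gene in the control and line RNA of the A2780CBN arrays (blue) and of the A2780CBNDXL arrays (red), as mean and SD of 4 arrays. The lines stand above both controls for FAS, CDKN1A and TP53I3, and for GADD45A A2780CBN alone does.

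With the controls exchanged between the lines, GADD45A changed sign in A2780CBNDXL, from -0.36 to 0.17, and fell to 1.08 in A2780CBN. CDKN1A was then 0.64 in A2780CBNDXL. FAS was 3.01 in A2780CBN and 3.87 in A2780CBNDXL, and TP53I3 was 1.29 and 1.17. SESN1 became 0.29 in A2780CBN and reached 1.18 in A2780CBNDXL.

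Of 90 other genes in 8 lists of the p53 pathway, 12 of 69 tested met the rule in A2780CBN, with 11 higher and 1 lower, and 9 of 74 in A2780CBNDXL, with 6 higher and 3 lower. These were 15.9% higher and 1.45% lower in A2780CBN, against 8% and 4.55% of all genes, and 8.11% higher and 4.05% lower in A2780CBNDXL, against 7.7% and 9.2%. Their median log2 ratio was 0.13 and 0.20. Of these genes 2 met the rule in both lines in 1 direction, BTG2 and TP53INP1, and GLS2 met it in opposite directions. With normexp and an offset of 50 the count in A2780CBNDXL was 4, and BTG2, TNFRSF10D, SOD2, GLS2 and SUSD6 no longer met the rule.

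Among 15 upstream regulators, PPM1D, a phosphatase that dampens p53 signalling, was 2.83-fold higher in A2780CBN (SD of the log2 ratio 0.29) and had a log2 ratio of 0.65 ± 0.15 in A2780CBNDXL. HIPK2, a kinase that phosphorylates p53, was higher in A2780CBN by a log2 ratio of 2.33 ± 0.54 and had -0.22 ± 0.25 in A2780CBNDXL. MDM4, a partner of MDM2, had -0.29 in both.

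Of 12 cell cycle arrest targets beside CDKN1A and GADD45A, BTG2, an antiproliferative factor, was higher in both lines (1.57 ± 0.13 and 1.16 ± 0.24). CCNG2, a cyclin linked to arrest, was higher in A2780CBN (1.15 ± 0.37) and had -0.32 ± 0.13 in A2780CBNDXL. Of its other probes 1 gave 1.49 and -0.42, and the dimmest gave 0.39 and 0.21, positive on all arrays of both lines. The kinase gene PLK2 was lower in A2780CBN (-1.03 ± 0.14) and had -0.97 ± 0.26 in A2780CBNDXL. Of 18 apoptosis targets, 11 were tested in A2780CBN and 13 in A2780CBNDXL. TP53INP1 was higher in both lines (1.87 ± 0.12 and 2.07 ± 0.22), and ZMAT3 in A2780CBN (1.15 ± 0.28 against 0.58 ± 0.15 in A2780CBNDXL). The other ZMAT3 probe had the opposite order, 0.73 ± 0.29 in A2780CBN and 1.31 ± 0.55 in A2780CBNDXL, so which line met the rule depended on the probe. PMAIP1 (NOXA), a BH3-only protein, was not well above background in either RNA of the A2780CBN arrays, and in A2780CBNDXL it had 4.32 ± 0.26 with a control above background on 1 of 4 arrays. TNFRSF10D, a decoy receptor for TRAIL, was at least 3.90-fold higher in A2780CBNDXL, its control being not well above background on any array. BID, which links death receptors to mitochondria, was lower in A2780CBNDXL (-2.13 ± 0.17).

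DDB2, a damage sensor of nucleotide excision repair, met the rule in A2780CBN (1.09 ± 0.42). It was 1 of 7 repair targets tested there, and 0 of 8 met the rule in A2780CBNDXL. Of 14 metabolism and antioxidant targets, 12 were tested in each line. In A2780CBN 4 of these were higher (33.3%, against 8% of all genes tested). They were the stress cytokine gene GDF15 (2.62 ± 0.48), FUCA1 (1.91 ± 0.23), FDXR (1.83 ± 0.30) and GLS2 (1.43 ± 0.24). In A2780CBNDXL GLS2 (-1.58 ± 0.19) and SOD2 (-1.08 ± 0.23) were lower, and GDF15 had -1.31 ± 0.20 on the 3 arrays that measured it. GLS2 was dim, with the line above background on 1 of 4 arrays of A2780CBNDXL and the control on 3 of 4 of A2780CBN. Of 12 secreted and feedback targets, CD82 (1.88 ± 0.18) and SUSD6 (2.14-fold, SD of the log2 ratio 0.33) were higher in A2780CBNDXL. The 9 partners of BAX and BBC3 in the BCL2 family had 0 genes past the rule in either line at their brightest probes. Only 7 were tested in A2780CBN and 8 in A2780CBNDXL, too few to set against the shares of all genes. Other probes disagreed, and those that follow were singled out after their values were seen. A second probe of BCL2 was at least 10.3-fold lower in A2780CBNDXL, where no array read the line well above background, while the brightest BCL2 probe gave 0.44 ± 0.24. A second probe of HRK gave -4.74 there, with the line above background on 1 of 4 arrays, against 0.49 ± 0.37 at its brightest probe. The BCL2L1 probes gave 0.95 ± 0.63 and 1.44 ± 0.38 there, the latter not past the filter on background. Averaged over all probes, 13 pathway genes met the rule in A2780CBNDXL, with THBS1, BCL2, BCL2L1 and HRK added, and ZMAT3 was lost in A2780CBN.

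**Figure D5:**
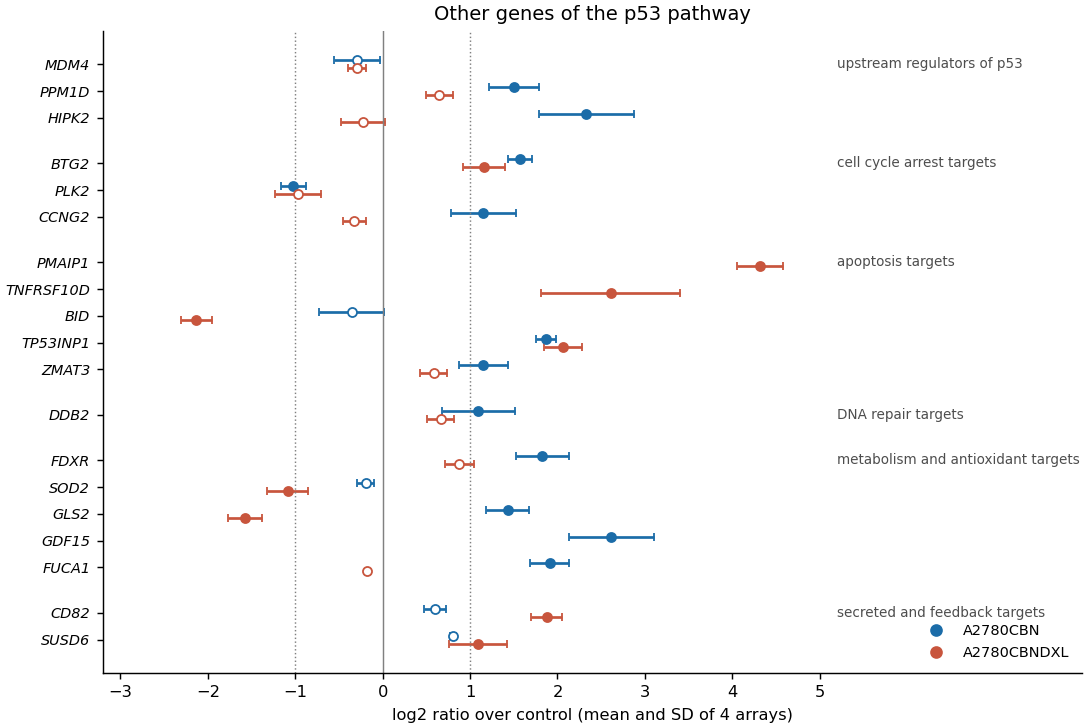
Mean log2 ratio over control with the SD of 4 arrays for other genes of the p53 pathway in A2780CBN (blue) and A2780CBNDXL (red); filled symbols met the 2-fold rule. Genes that did not pass the filter on background in a line are left blank there. GDF15 is blank in A2780CBNDXL because only 3 arrays measured it, and it was above background on those. PMAIP1, TNFRSF10D and GLS2 in A2780CBNDXL have 1 of their RNAs above background on at most 1 of 4 arrays, so their points are not exact ratios. BTG2 and TP53INP1 are past the rule in both lines.

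Markers of cell types were read in the same way. Of 8 epithelial markers of ovarian carcinoma, EPCAM was higher in both lines (2.07 and 1.67) and KRT18 in A2780CBN (1.05), while KRT7, MUC16 and WT1 were not well above background in any RNA. KRT8 (-0.37 in A2780CBN and 0.18 in A2780CBNDXL), ESR1 (-0.36 and 0.24) and PAX8 (0.21 and 0.33) did not meet the rule. Of 5 fibroblast markers, COL3A1 (1.44 and 1.16), DCN (2.21 and 3.62) and LUM (at least 2.21-fold in A2780CBN, 2.51 in A2780CBNDXL) were higher, COL1A2 was lower (-5.67 and -2.81), and COL1A1 was higher in A2780CBNDXL (2.04). COL1A2 was above background in A2780CBN on 3 of 4 arrays, as was EPCAM in the control of A2780CBNDXL. The summed signal of the 5 fibroblast markers was 36608 to 46016 in A2780CBN against 13084 to 19673 in its control, and 45845 to 62825 in A2780CBNDXL against 21419 to 29016. Most of this sum came from COL3A1, so it says little of the other markers. The mean signal of COL3A1 was 40143 in A2780CBN and 14983 in its control, and 42590 in A2780CBNDXL and 19088 in its control. Of 3 leukocyte markers 0 met the rule in either line. PTPRC was not well above background in any RNA, while CD3E and CD14 were in every RNA on all 4 arrays. CD14 had -0.59 in A2780CBN and -0.68 in A2780CBNDXL, and CD3E had 0.10 and -0.02. The summed signal of the leukocyte markers was 120 to 194 over all arrays. Of 3 endothelial markers none passed the filter on background, and their summed signal was below that of the leukocyte markers on every array. The part of these genes in the ratios of the p53 targets was not tested.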

How the data were processed

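The authors scanned 8 two-colour Agilent arrays and deposited Feature Extraction output (10.7.1.1 and 10.7.3.1 for slides 1 and 2), in which the processed intensity of each channel is background-subtracted and dye-normalized. Raw and background-subtracted intensities served alternatives only. Spots marked as outliers were left out, and spots of a probe were averaged as log2 values. Reverse arrays were turned over as their name states, after which forward and reverse ratios of a line correlated at 0.58 to 0.74 across probes. The log2 ratio was averaged within, then over, labelling directions. The probe with the highest mean signal represented a gene. Levels across arrays and lower bounds used Aquantile scaling (limma 3.58.1, R 4.3.3); a bound sets the brighter RNA against the lowest signal counted as well above background. Other steps used Python 3.11.15. The 9 members and the gene lists were chosen with earlier results of these data known. All members were named, with MDM4, PPM1D and up to 6 genes per list that met the 2-fold rule, by size, and any such marker. The steps were tested on simulated data. The number of arrays limits the precision. Some list genes are not reported here and were left out of the list counts. A2780DXL was not analysed here, and no NCBI36 annotation was used.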

Additional observations from a re-analysis of the deposited data

Results flagged for a closer look

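The search covered the members and the named genes of the pathway and marker lists, not all genes. It kept genes that passed the filter on background in both lines and met the 2-fold rule in at least 1 line. In 4 of those, all 4 arrays of A2780CBN moved one way and all 4 of A2780CBNDXL the opposite way. The share of all genes that do so was not counted, so this number is a description. GADD45A had log2 ratios of 1.60 and -0.36, CCNG2 of 1.15 and -0.32, GLS2 of 1.43 and -1.58, and FUCA1 of 1.91 and -0.17 in A2780CBN and A2780CBNDXL. The GLS2 values are uncertain, since its line RNA was above background on 1 of 4 arrays of A2780CBNDXL and its control on 3 of 4 of A2780CBN. The dimmest CCNG2 probe did not show the opposite signs, with 0.39 and 0.21. PMAIP1 and TNFRSF10D, which did not pass the filter in A2780CBN, were left out. GDF15, with 2.62 in A2780CBN and -1.31 in A2780CBNDXL, was also left out, since only 3 arrays of A2780CBNDXL measured it. These differences were not tested, since each line is 1 sample.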

How the results depend on the processing

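No paired analysis was possible because each line is 1 pooled sample. The count of members past the 2-fold rule, 4 in A2780CBN and 3 in A2780CBNDXL, ranged from 3 to 4 and from 3 to 3 with each array left out in turn. On the reverse labelled arrays alone, a choice made after seeing the data, it was 2 in A2780CBN, without CDKN1A and TP53I3, and the other pathway genes past the rule in A2780CBNDXL numbered 14. A 1.5-fold limit gave 5 in A2780CBNDXL, adding BAX and SESN1. All other alternatives kept both counts within 1 of these values. Normexp with an offset of 50 brought the other pathway genes in A2780CBNDXL from 9 to 4, and left 604 of all genes past the rule in A2780CBN (2253 as reported) and 1172 in A2780CBNDXL (2893). An offset of 1, also added later, gave 1094 and 1921, and a 1.5-fold limit gave 4860 and 5699. A 3-way ANOVA, named in the methods without its factors, was fitted here with line, dye and slide, and limma with a dye term. Both took the 4 arrays of 1 pooled sample as replicates, and the ANOVA took the channels of an array as separate values. Their p-values therefore hold only the error of labelling and hybridization, and their counts over all genes are not given. Of 234 single log2 ratios under alternatives, 209 moved by less than the SD between arrays and 25 by more. Leaving out an array, or taking 1 slide or 1 labelling direction alone, cannot move a mean by that much. Nor can the mean over probes for a gene with 1 probe. Such settings fall among the 209 by construction, so the 209 do not measure stability. The 25 came from normexp, background-subtracted signals, the mean over probes and the exchanged controls. GADD45A was the 1 member with a 2-fold difference between the lines with normexp at an offset of 50, background-subtracted signals, each array left out, each slide alone and the mean over probes, and with the exchanged controls it was CDKN1A (-1.09) and GADD45A had -0.91. The cause was not tested.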
